A study of Homo sapiens with 24 samples.

Results

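The genes described here are 9 markers of intestinal stem cells, LGR5, ASCL2, PROM1, CD44, SOX9, SMOC2, OLFM4, TNFRSF19 and MSI1, out of 33382 genes listed in each table of an RNA-seq study of colorectal cancer cells. They were picked by name and not by their values, and 8 of the 9 passed the filter on low counts and were tested, OLFM4 being the exception. The cells were SW480 and SW620, established colorectal adenocarcinoma lines raised from the primary tumour and from a lymph node metastasis of the same patient. Each line had been infected with a lentivirus that carries Tet2CD, the catalytic domain of the DNA dioxygenase TET2, or with the empty vector, and both kinds of cells had been selected with 5 µg/ml puromycin. Cells were then exposed for 24 h to 4 ng/ml of the cytokine TGFB1, to 1 µM RepSox, which blocks the kinase of the TGF-beta type I receptor, or to the solvent DMSO. These agents, doses and times are those of the sample labels, while the study's methods name a mixture of TGF-beta ligands and a longer exposure, a difference the sources used here do not settle. These choices give 12 groups of 2 libraries: SW480 Tet2CD, SW480 vector, SW620 Tet2CD and SW620 vector cells, each with TGFB1, RepSox or DMSO. Tet2CD holds only the catalytic part of the protein and came from a virus in selected cells, and whether paired libraries stem from separate cultures is not stated.

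All 9 are protein-coding genes, placed here by GENCODE 29 on GRCh38. The surface proteins are encoded by LGR5 on the plus strand at chr12:71439770-71586310, TNFRSF19 on the plus strand at chr13:23570370-23676104, PROM1 on the minus strand at chr4:15963076-16084378 and CD44 on the plus strand at chr11:35138870-35232402. The transcription factors are encoded by ASCL2 on the minus strand at chr11:2268495-2270952 and SOX9 on the plus strand at chr17:72121020-72126420, and the secreted proteins by SMOC2 on the plus strand at chr6:168441151-168673445 and OLFM4 on the plus strand at chr13:53028759-53052057. MSI1 lies on the minus strand at chr12:120341330-120369180.

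At the base of the intestinal crypt, stem cells divide under WNT signals and feed the rest of the epithelium. LGR5, the receptor for R-spondins, marks these cycling cells, and ASCL2 is a transcription factor that holds them in the stem cell state together with WNT signalling. SMOC2 is a secreted calcium-binding matrix protein and OLFM4 a secreted glycoprotein, both known from the gene signature of LGR5+ cells. TNFRSF19, also called TROY, is a receptor of the TNF receptor superfamily and a WNT target. SOX9 is a transcription factor of the crypt base and of Paneth cells, CD44 is the hyaluronan receptor, PROM1 is the membrane glycoprotein CD133, and MSI1 is an RNA-binding protein. CD44, PROM1 and LGR5 are also widely used to enrich tumour-initiating cells from colorectal cancers. TGF-beta holds back the growth of normal colon epithelium, and TET2 oxidises methylated cytosine, mostly where it stands before a guanine (CpG).

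The libraries held between 2146123 and 4410567 expected counts (median 3653712), so genes at a few counts are poorly measured. TET2 itself was listed at 269.5 to 2640 CPM (counts scaled to library size) in the 12 Tet2CD libraries and at 10.31 to 24.97 CPM in the 12 vector libraries, without overlap. The epithelial markers KRT8, KRT18 and EPCAM were high in both lines, with 8 epithelial markers adding up to at least 6830 TPM (counts scaled by transcript length and library size) in every library, while CDX1 stayed below 1 TPM. Most of that sum was KRT8 and KRT18. Intestinal markers of the list were low too: CDH17 reached at most 0.65 TPM in SW480 and 2.98 TPM in SW620. LGALS4 had a median of 0.98 TPM in SW480 and 3.17 TPM in SW620. CDX2 and VIL1 had medians of 69.7 and 30.6 TPM in SW480 and 10.2 and 230 TPM in SW620. The lists for blood cells, endothelium, fibroblasts and enteric glia each added up to at most 29.4 TPM. Within each group, library 1 is the one with the lower running number in the labels, a number that names libraries and does not pair them. The 3 SW480 Tet2CD libraries numbered 1 stood apart from the other 21: ribosomal protein genes took 10.11 to 14.98% of their counts against 5.74 to 9.42%, and the mean GC content of their counted transcripts was 52.46 to 53.59% against 49.55 to 51.73%. They also had the least TET2 of the SW480 Tet2CD libraries, at 269.5 to 894.4 CPM against 1690 to 2640 CPM in the libraries numbered 2. Results on Tet2CD in SW480 are therefore given with and without them.

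Methylation was not measured in these tables, but the CpG content of the promoters gives the sequence that TET2 could act on. RefSeq start sites on GRCh38.p14 were found for 5 of the 9 genes in the table of promoters used here (PROM1, SMOC2, CD44, TNFRSF19 and OLFM4). Stretches upstream of 3 annotated genes are shown because they differ widely in CpG content, and because SMOC2 was nearly absent from SW480 but not from SW620, while OLFM4 was nearly absent from both. Capitals mark each CpG, and all 3 are read 5′ to 3′ on the plus strand.
SMOC2, chr6:168440934-168441150: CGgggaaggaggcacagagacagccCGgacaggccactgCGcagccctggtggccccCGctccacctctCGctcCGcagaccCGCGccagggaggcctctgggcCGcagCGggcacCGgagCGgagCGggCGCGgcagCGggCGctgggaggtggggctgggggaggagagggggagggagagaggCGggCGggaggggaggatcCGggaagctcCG
TNFRSF19, chr13:23570162-23570369: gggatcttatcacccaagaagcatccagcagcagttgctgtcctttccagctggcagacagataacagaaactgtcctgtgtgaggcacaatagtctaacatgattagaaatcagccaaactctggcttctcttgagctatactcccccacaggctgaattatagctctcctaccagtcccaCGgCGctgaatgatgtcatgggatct
OLFM4, chr13:53028563-53028758: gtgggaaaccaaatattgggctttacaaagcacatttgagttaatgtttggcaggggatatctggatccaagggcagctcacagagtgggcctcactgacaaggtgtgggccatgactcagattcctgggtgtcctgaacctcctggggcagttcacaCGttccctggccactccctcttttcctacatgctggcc
The SMOC2 stretch holds 21 CpGs in 217 bases, the TNFRSF19 stretch 2 in 208 and the OLFM4 stretch 1 in 196. Counted over the whole 250 bases before the start, SMOC2 has 24 CpGs, and 23.7% of 35116 RefSeq promoters have as many or more. OLFM4 has 1, a number that 93.9% of promoters reach, and the median promoter has 11. TNFRSF19 has a second start further into the gene with 20 CpGs in its 250 bases, against 4 at the first. CD44 has 15 CpGs at its start, and the 4 PROM1 starts have between 5 and 26. The letters CAGAC, the core of a SMAD binding site, occur once on either strand in the windows of SMOC2 and of the first TNFRSF19 start and not in those of CD44, OLFM4 and the second TNFRSF19 start. Of the 4 PROM1 windows, 3 hold them (1, 1 and 2 matches), and 38.0% of all promoters hold them. The letters CTTTGAT or CTTTGAA of a TCF/LEF site, searched on both strands, occur only at 1 of the 4 PROM1 starts, and 5.94% of all promoters hold them.

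The lines carried different sets of the markers. In vector cells, SW480 had more CD44, TNFRSF19 and MSI1 than SW620 and next to no LGR5, PROM1 or SMOC2, while ASCL2 and SOX9 were expressed in both and did not differ past the threshold. CD44 stood at 156 to 254 TPM (median 213) in the 6 SW480 vector libraries and at 8.12 to 21.4 TPM (median 14.2) in the 6 SW620 vector libraries, which is 4.60 on the log2 scale (SE 0.14, adjusted p = 1.4e-13 by edgeR's quasi-likelihood test, as for all adjusted p-values of single genes here). TNFRSF19 stood at 30.7 to 49.3 TPM (median 34.9) in SW480 and at 3.86 to 12.6 TPM (median 8.69) in SW620, which is 2.32 on the log2 scale (SE 0.21, adjusted p = 5.33e-08). Neither gene overlapped between the lines. MSI1 was low throughout, at 2.44 to 6.07 TPM in SW480 vector libraries and at 0 to 1.02 TPM in SW620 vector libraries. Its 104 counts in SW480 against 4 in SW620 give a ratio of 25.3 (95% exact interval from counting alone, 9.58 to 94.5).

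The 3 markers missing from SW480 were clearly present in SW620. LGR5 stood at 0 to 0.17 TPM in the 6 SW480 vector libraries, 2 counts in all, and at 4.08 to 15.4 TPM in the 6 SW620 vector libraries, 515 counts in all. Taken as SW620 over SW480, the ratio of these counts is 265 (72.9 to 2190). PROM1 gave 5 counts in SW480 against 1151 in SW620, a ratio of SW620 over SW480 of 237 (101 to 730). SMOC2 gave 1 count in SW480 against 2353 in SW620, a ratio of SW620 over SW480 of 2420 (434 to 95600). All 3 passed the test, but they reached the tested set only through SW620, as MSI1 did through SW480, so these 4 genes had to differ between the lines. The test called 6 markers, 3 higher and 3 lower in SW480, where 58.9% of all 15302 genes tested were called, so that a difference between the lines was the rule for genes of any kind.

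ASCL2 and SOX9 were not called between the lines in the fit to all libraries. ASCL2 stood at 59.5, 78.4 and 111 TPM (lowest, median, highest) in SW480 vector cells and at 27.3, 43.2 and 73.7 TPM in SW620 vector cells, with a log2 difference of 0.71 (SE 0.32, adjusted p = 0.0645). Without the 3 SW480 Tet2CD libraries that stand apart, which are not themselves compared here, ASCL2 was called (0.77, SE 0.15, adjusted p = 9.71e-05), and with the correction for GC content it was not (0.30, adjusted p = 0.201). SOX9 stood at 95.9, 106 and 121 TPM in SW480 vector cells and at 85.9, 114 and 143 TPM in SW620 vector cells, with a log2 difference of -0.17 (SE 0.13, adjusted p = 0.267). Both overlapped between the lines. OLFM4 was not detected in practice: a single count fell to 1 SW620 vector library with TGFB1, and the other 23 libraries had none. In the 12 SW480 libraries together, 0 counts allow up to 0.0743 CPM.

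**Figure D1:**
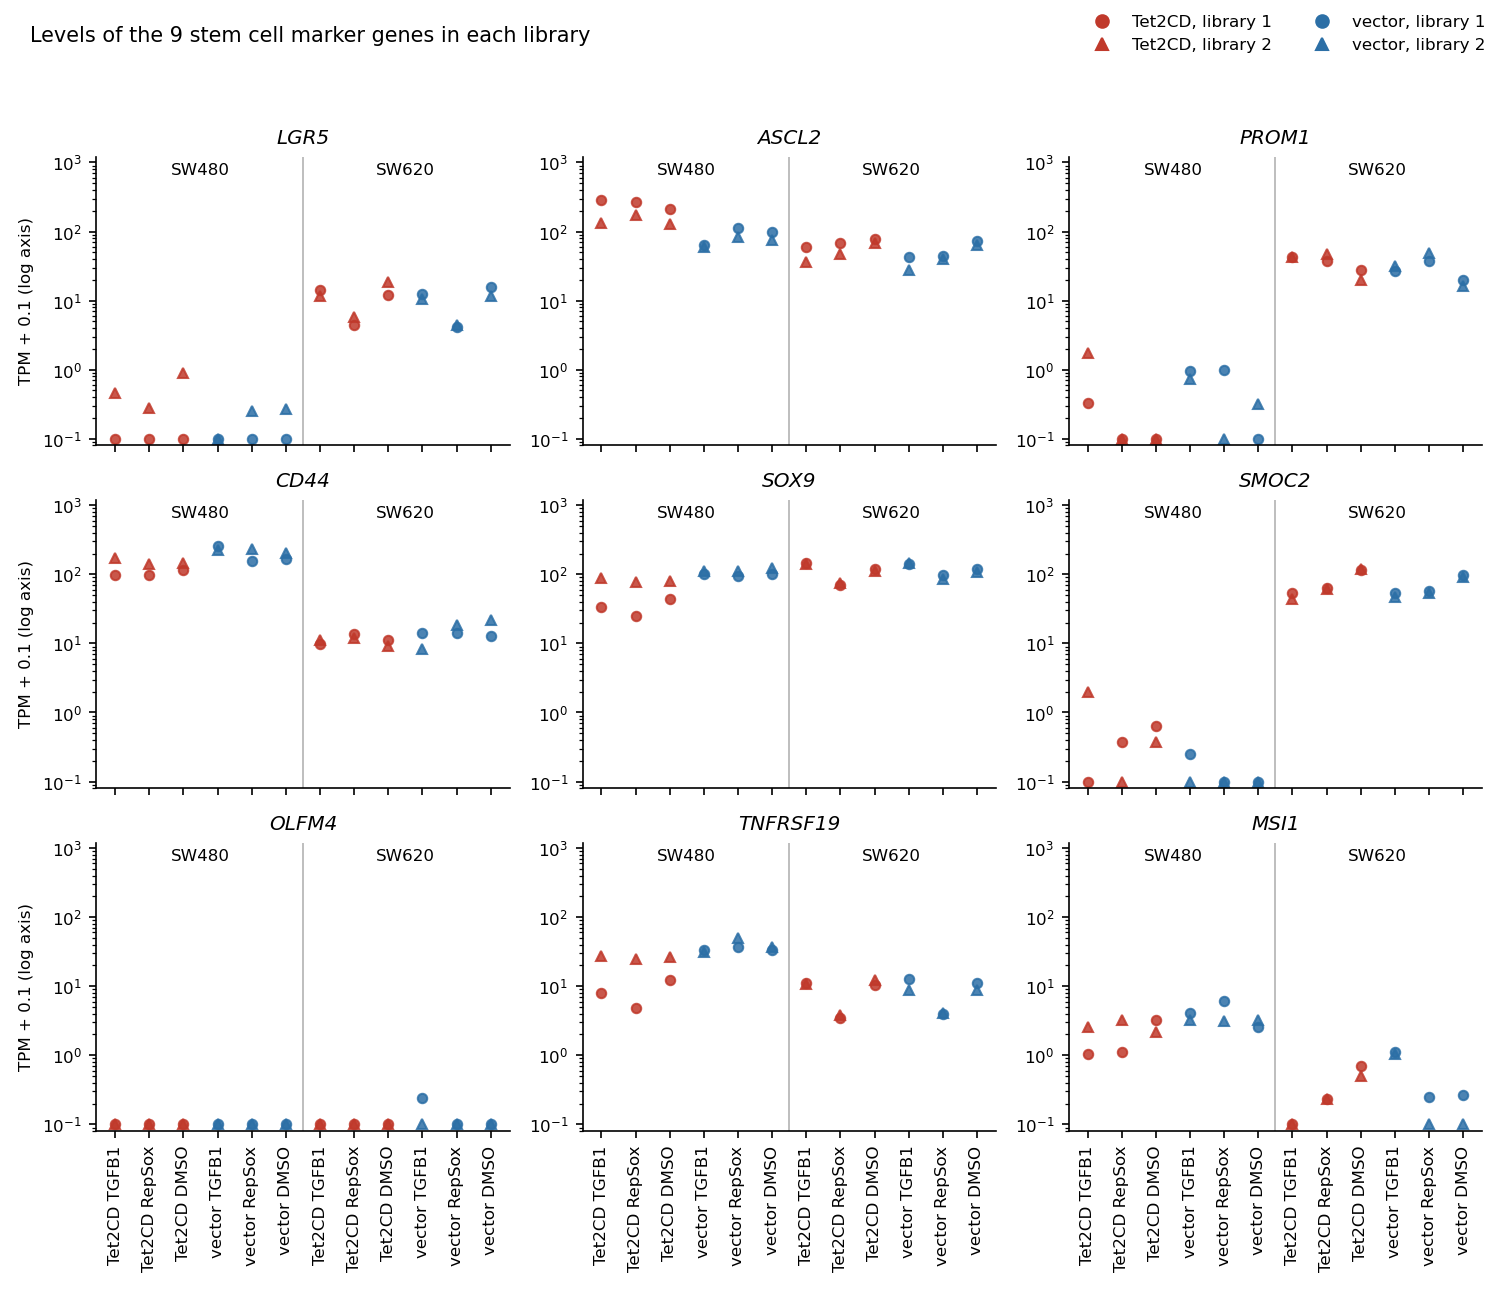
TPM plus 0.1 on a log axis for each of the 9 markers in all 24 libraries, grouped along the x axis by line, construct and treatment, with red for Tet2CD and blue for vector cells and circles and triangles for the 2 libraries of a group. LGR5, PROM1 and SMOC2 lie near the floor in SW480 (at most 1.85 TPM) and between 4.08 and 119 TPM in SW620, CD44 lies between 96.0 and 254 TPM in SW480 and at most at 21.4 TPM in SW620, and OLFM4 lies at the floor everywhere but in 1 library.

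Across the 12 groups the markers ranked the groups in different orders. ASCL2 was highest in SW480 Tet2CD cells, at 222 ± 68.9 TPM with RepSox, 210.1 ± 110.5 TPM with TGFB1 and 168 ± 58.1 TPM with DMSO (SD, n = 2 each), and lowest in SW620 vector cells with TGFB1 (35.0 ± 11.0 TPM). The 3 highest groups overlapped one another, did not overlap the next group, SW480 vector cells with RepSox, and below that every group overlapped its neighbour. SOX9 ran the other way in SW480 Tet2CD cells, its 3 lowest groups (51.1 ± 36.8, 60.8 ± 39.2 and 61.8 ± 25.9 TPM with RepSox, TGFB1 and DMSO), and was highest in SW620 with TGFB1, at 143 ± 2.47 TPM in Tet2CD cells and 142 ± 1.29 TPM in vector cells. TNFRSF19 was highest in SW480 vector cells, where the groups with RepSox (42.8 ± 9.18 TPM), DMSO and TGFB1 overlapped in turn, and lowest in SW620 with RepSox (3.57 ± 0.311 TPM in Tet2CD cells and 3.92 ± 0.0849 TPM in vector cells). SMOC2 and LGR5 both peaked in SW620 Tet2CD cells with DMSO, at 118 ± 1.09 TPM and 15.2 ± 4.62 TPM. The SMOC2 level there did not overlap that of the next group, SW620 vector cells with DMSO (94.8 ± 5.19 TPM), while the 4 highest LGR5 groups overlapped in turn. PROM1 peaked in SW620 vector cells with RepSox (43.2 ± 8.16 TPM), overlapping both treated Tet2CD groups. CD44 was highest in SW480 vector cells with TGFB1 (239 ± 20.4 TPM), and MSI1 in SW480 vector cells with RepSox (4.54 ± 2.16 TPM), each overlapping the group next in order.

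The first question put to the markers was whether Tet2CD moved them. In SW480, ASCL2 was higher and SOX9, TNFRSF19 and CD44 were lower in Tet2CD cells than in vector cells, over all 3 treatments. ASCL2 stood at 209 and 127 TPM with DMSO, 288 and 132 TPM with TGFB1, and 270.4 and 173 TPM with RepSox in Tet2CD cells, against 97.7 and 74.9, 63.5 and 59.5, and 111 and 81.9 TPM in vector cells under the same treatments. Every Tet2CD library lay above every vector library. The log2 fold change was 1.78 (SE 0.32, adjusted p = 0.000355), and the libraries numbered 1 gave the higher ASCL2 value of each Tet2CD pair. Without those 3 libraries the log2 fold change was 0.81 (SE 0.16, adjusted p = 0.000618). With a correction for GC content it was 0.94 (SE 0.19, adjusted p = 0.000982), and ASCL2 is the most GC-rich of the markers, with 69.2% GC in its transcripts against 42.6 to 59.1% in the other 8. The part of the GC shift of those libraries in this difference was not tested beyond these values.

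The 3 markers that fell in SW480 did so in both sets of libraries, most in the set that stands apart. SOX9 stood at 43.5 and 80.1 TPM with DMSO, 33.0 and 88.5 TPM with TGFB1 and 25.1 and 77.1 TPM with RepSox in Tet2CD cells, against 95.9 to 121 TPM in the 6 vector libraries. TNFRSF19 stood at 12.1 and 26.2, 7.94 and 27.6, and 4.68 and 24.2 TPM in the same Tet2CD cells, against 30.7 to 49.3 TPM in vector cells. For both genes all 6 Tet2CD libraries lay below all 6 vector libraries, and the first library of each Tet2CD pair was the lower. The log2 fold change was -0.66 for SOX9 (SE 0.13, adjusted p = 0.000775) and -0.41 (SE 0.08, adjusted p = 0.00047) without the 3 libraries. For TNFRSF19 it was -0.85 (SE 0.19, adjusted p = 0.00188) and -0.48 (SE 0.09, adjusted p = 0.000388) without them. CD44 stood at 96.0 to 172 TPM in Tet2CD cells and at 156 to 254 TPM in vector cells, and 1 Tet2CD library, with TGFB1, reached into the range of the vector cells. Its log2 fold change was -0.38 (SE 0.12, adjusted p = 0.0121), -0.31 (SE 0.095, adjusted p = 0.0147) without the 3 libraries, and -0.18 (SE 0.10, adjusted p = 0.135) with the correction for GC content, where the call was lost.

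**Figure D2:**
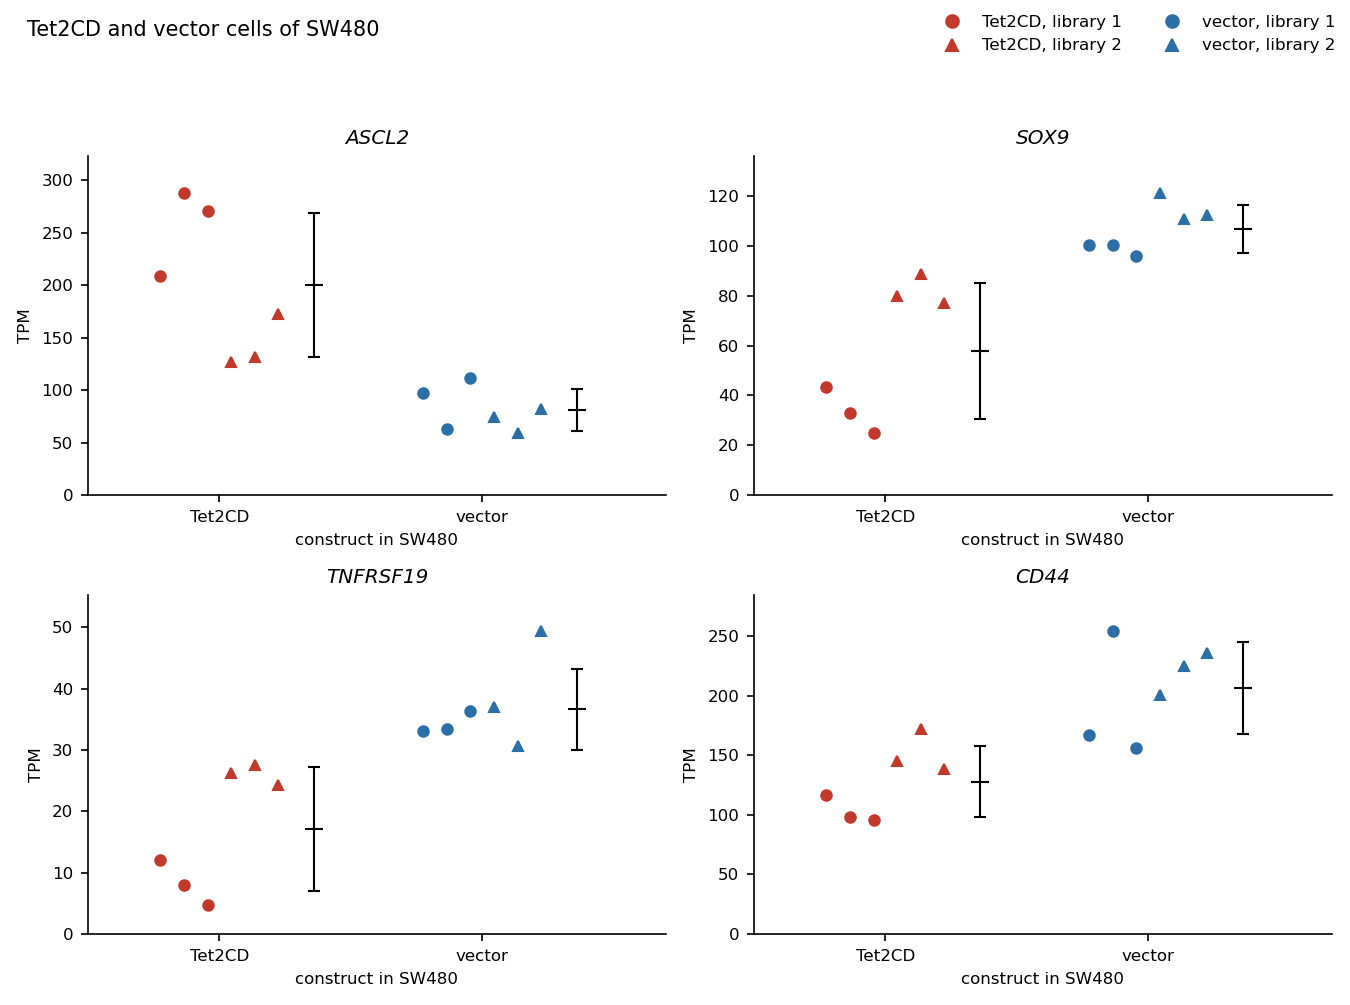
TPM of ASCL2, SOX9, TNFRSF19 and CD44 in the 12 SW480 libraries, Tet2CD cells on the left and vector cells on the right, with circles for libraries numbered 1, triangles for libraries numbered 2, and the mean with its SD beside the points. The 6 Tet2CD libraries lie above the vector libraries for ASCL2 (127 to 288 against 59.5 to 111 TPM) and below them for SOX9 and TNFRSF19, and the circles of the Tet2CD cells lie farther from the vector cells than the triangles do.

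SMOC2 was also called higher in SW480 Tet2CD cells, on very few counts. It gave 17 counts in the 6 Tet2CD libraries and 1 count in the 6 vector libraries, and 12 of the 17 came from 1 library, the second with TGFB1. The ratio of these counts was 21.4 (3.35 to 893), an interval that covers counting error only. Leaving that library out, or the first library with RepSox, ended the call, and so did leaving out the 3 libraries that stand apart. The other markers near the floor in SW480, LGR5 (7 counts in Tet2CD and 2 in vector cells) and PROM1 (5 and 5 counts), did not pass the test, with adjusted p-values of 0.0974 and 0.264. Without the 3 libraries LGR5 was called higher (log2 fold change 2.55, SE 0.98, adjusted p = 0.0481) and PROM1 was not (adjusted p = 0.435). This LGR5 call also rests on very few counts, at most 4 in a library. Over all SW480 libraries the ratio of LGR5 counts was 4.4, with an interval from counting alone that includes no difference (0.838 to 43.4). MSI1 gave 0.94 to 3.1 TPM in Tet2CD cells and 2.44 to 6.07 TPM in vector cells, with a log2 difference of -0.46 (SE 0.28, adjusted p = 0.179), and -0.56 (SE 0.36, adjusted p = 0.245) without the 3 libraries. The call of 5 markers, 2 higher and 3 lower, stood beside a share of 54.5% among all genes tested, so the number of markers called says nothing particular about them. Without the 3 libraries it was again 5, with LGR5 in the place of SMOC2, where 38.0% of all genes were called.

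In SW620 no marker was called between Tet2CD and vector cells, where 0.314% of all genes were. No marker reached an unadjusted p under 0.05 either, and DESeq2 and limma on log2(TPM + 1) also called 0 markers. LGR5 stood at 4.28 to 18.5 TPM in Tet2CD cells and at 4.08 to 15.4 TPM in vector cells, with a log2 difference of 0.18 (SE 0.20, adjusted p = 0.934). ASCL2 stood at 35.5 to 77.0 TPM in Tet2CD cells and at 27.3 to 73.7 TPM in vector cells (log2 fold change 0.31, SE 0.32, adjusted p = 0.927). PROM1, CD44, SOX9, SMOC2, TNFRSF19 and MSI1 had log2 fold changes between -0.28 and 0.11, and the libraries of the constructs overlapped for every marker. Within single treatments, however, with 2 libraries against 2, some markers did not overlap in TPM. Among them, SMOC2 stood at 117 and 119 TPM in Tet2CD cells and 98.5 and 91.2 TPM in vector cells under DMSO. With TGFB1, PROM1 stood at 42.4 and 42.0 TPM in Tet2CD cells and 26.4 and 31.6 TPM in vector cells. In CPM, however, these PROM1 libraries overlapped, at 58.4 and 55.6 in Tet2CD cells and 52.9 and 58.3 in vector cells. With RepSox, SOX9 stood at 68.95 and 74.75 TPM in Tet2CD cells and 97.4 and 85.9 TPM in vector cells. The share of all genes that separated in this way was not counted, so these cases say nothing particular about the markers.

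The difference between the Tet2CD effects of the lines was tested as an interaction, and 1 marker was called where 20.1% of all genes were. ASCL2 had a log2 difference of 1.47 (SE 0.45, adjusted p = 0.0311), from 1.78 in SW480 and 0.31 in SW620. Without the 3 SW480 libraries that stand apart it was 0.48 (SE 0.22, adjusted p = 0.144), and leaving out single libraries ended the call in 15 of 24 cases (adjusted p up to 0.0805). SOX9 (-0.53, SE 0.18, adjusted p = 0.0511) and TNFRSF19 (-0.82, SE 0.29, adjusted p = 0.0545) lay just beyond the threshold. Both were called without the 3 libraries, SOX9 at -0.29 (SE 0.10, adjusted p = 0.0497) and TNFRSF19 at -0.46 (SE 0.14, adjusted p = 0.025), and both were also called with the library number term, with no filter and by DESeq2. With the correction for GC content, with limma and within each treatment they were not. SMOC2 (adjusted p = 0.0639), LGR5, PROM1, CD44 and MSI1 did not pass it, and none of these 5 was called without the 3 libraries.

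The second question was whether the markers changed when the TGF-beta pathway was stimulated or blocked. In SW620 LGR5, TNFRSF19, PROM1 and SMOC2, 4 of the 8 markers tested, were called against DMSO with at least 1 of the treatments, while in SW480 no marker was. Of all genes tested, 15.6% were called with TGFB1 and 4.69% with RepSox in SW620, against 1.05% and 0.0% in SW480. Taken singly, TGFB1 called 2 markers and RepSox 3 in SW620. The share of all genes called with at least 1 of the treatments was not counted. LGR5, PROM1 and SMOC2 gave only 9, 10 and 18 counts over the 12 SW480 libraries. No marker was called when the treatment effects of the lines were set against each other. The comparisons of TGFB1 and of RepSox with DMSO use the same 4 DMSO libraries of a line, 2 of Tet2CD and 2 of vector cells, so their values are given side by side.

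RepSox lowered LGR5 and TNFRSF19 in SW620. LGR5 stood at 4.28 and 5.75 TPM with RepSox in Tet2CD cells and at 4.08 and 4.29 TPM in vector cells, against 11.9, 18.5, 15.4 and 11.7 TPM in the 4 DMSO libraries. TNFRSF19 stood at 3.35, 3.79, 3.86 and 3.98 TPM with RepSox, against 10.3, 12.2, 11.0 and 8.76 TPM with DMSO. Neither gene overlapped between RepSox and DMSO. The log2 fold change was -1.42 for LGR5 (SE 0.25, adjusted p = 0.00327) and -1.38 for TNFRSF19 (SE 0.27, adjusted p = 0.00644), a level of 0.373 and 0.385 times that with DMSO. With TGFB1 neither passed the test: LGR5 stood at 10.4 to 14.0 TPM (log2 fold change -0.16, SE 0.23, adjusted p = 0.705) and TNFRSF19 at 8.62 to 12.6 TPM (log2 fold change -0.16, SE 0.25, adjusted p = 0.726). Fewer cells that express a gene and less RNA of it per cell cannot be told apart in such bulk libraries.

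PROM1 rose with both treatments in SW620. It stood at 42.4 and 42.0 TPM with TGFB1 in Tet2CD cells and at 26.4 and 31.6 TPM in vector cells, at 36.8, 46.4, 37.4 and 49.0 TPM in the same order with RepSox, and at 27.8, 19.6, 19.9 and 16.1 TPM with DMSO. The log2 fold change was 0.71 with TGFB1 (SE 0.16, adjusted p = 0.0084), where the ranges met in 1 library of each side, and 1.05 with RepSox (SE 0.16, adjusted p = 0.00181), where they did not overlap. The call with TGFB1 was lost when 1 of 3 libraries was left out, SW620 vector DMSO, SW620 Tet2CD DMSO or SW620 vector TGFB1 of the libraries numbered 2 (adjusted p = 0.07, 0.0543 and 0.0508).

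SMOC2 fell with TGFB1 in SW620, and its RepSox libraries also lay below DMSO. It stood at 52.8, 44.4, 54.3 and 47.1 TPM with TGFB1, at 62.3, 61.1, 57.8 and 53.9 TPM with RepSox, and at 117, 119, 98.5 and 91.2 TPM with DMSO, the first 2 values of each set being Tet2CD cells. All 8 treated libraries lay below all 4 DMSO libraries. The log2 fold change was -1.04 with TGFB1 (SE 0.23, adjusted p = 0.00713) and passed the test. With RepSox it was -0.78 (SE 0.23, adjusted p = 0.0755) and did not, although a fit to the SW620 libraries alone put it at -0.80 (adjusted p = 1.49e-05). A fit without the 3 SW480 libraries that stand apart gave -0.80 as well (adjusted p = 2.62e-05).

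SOX9 was set apart by the 2 treatments. It stood at 145, 141, 142 and 143 TPM with TGFB1, at 68.9, 74.8, 97.4 and 85.9 TPM with RepSox, and at 119, 111, 120.2 and 108 TPM with DMSO, so that TGFB1 lay above and RepSox below DMSO without overlap. Neither difference from DMSO passed the test, at a log2 fold change of 0.28 with TGFB1 (SE 0.16, adjusted p = 0.266) and -0.43 with RepSox (SE 0.16, adjusted p = 0.161). The fit to SW620 alone called both (0.27, adjusted p = 0.00483, with TGFB1 and -0.44, adjusted p = 0.000356, with RepSox), and so did the fit without the 3 SW480 libraries (adjusted p = 0.016 and 0.000577). Set against each other, TGFB1 exceeded RepSox by 0.70 on the log2 scale (SE 0.16, adjusted p = 0.00314). ASCL2 stood at 60.0, 35.5, 42.8 and 27.3 TPM with TGFB1, at 67.6, 46.4, 43.5 and 40.3 TPM with RepSox and at 77.0, 67.9, 73.7 and 62.9 TPM with DMSO. All 4 TGFB1 libraries lay below the DMSO libraries, but the log2 fold change of -0.82 (SE 0.39) had an adjusted p of 0.177. It passed under 5 of 10 other settings, among them the fit to SW620 alone (-0.82, adjusted p = 0.00128). CD44 and MSI1 did not pass against DMSO with either treatment, CD44 with log2 fold changes of -0.13 with TGFB1 (SE 0.18) and 0.24 with RepSox (SE 0.18), and MSI1 with at most 5 counts over the 4 libraries of a treatment.

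**Figure D3:**
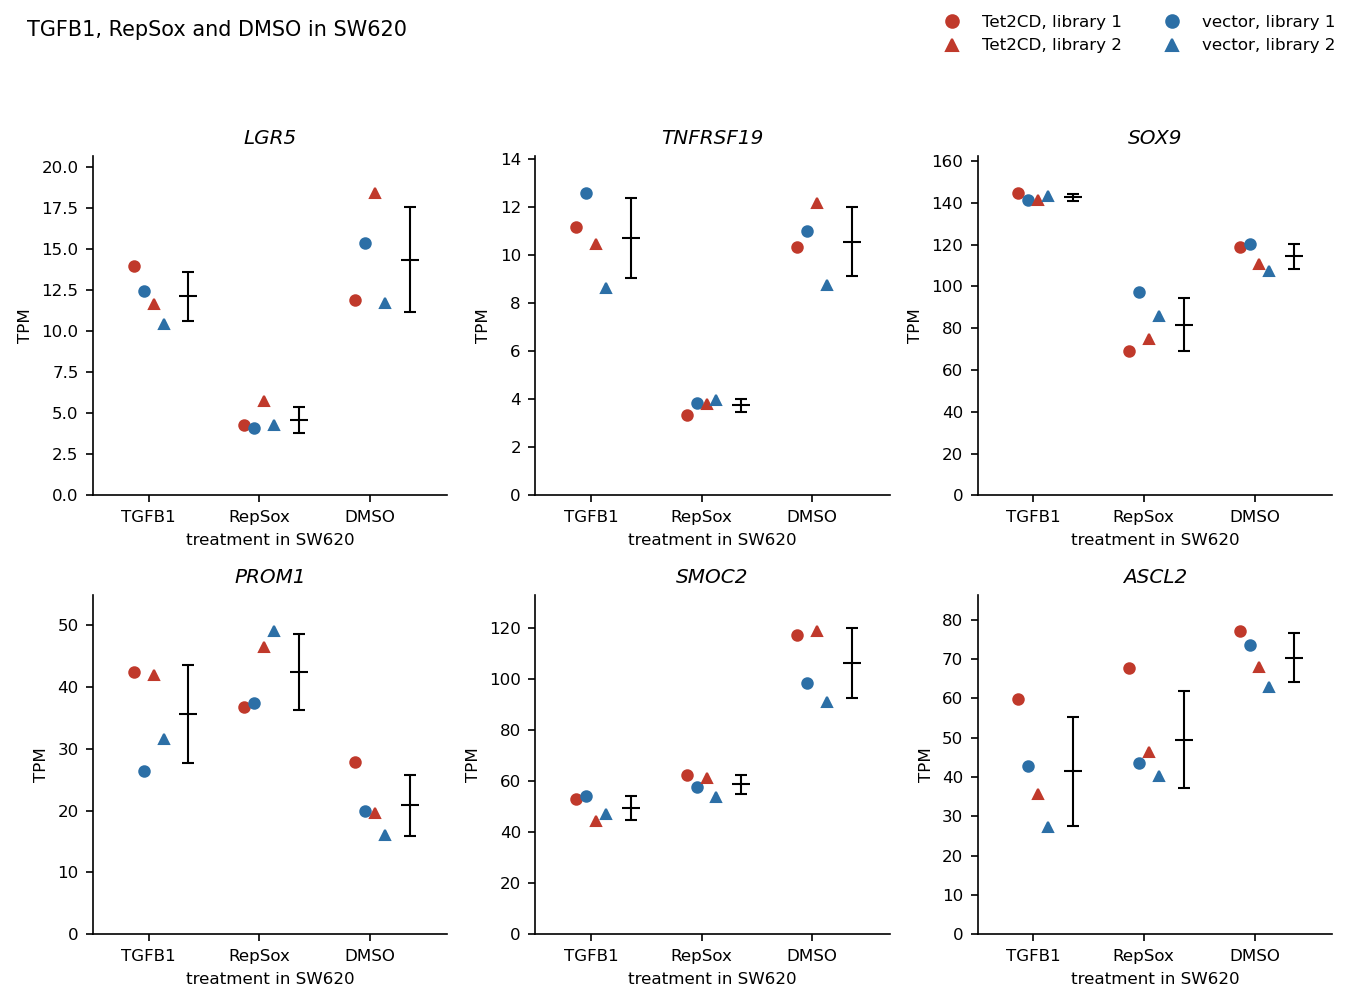
TPM of LGR5, TNFRSF19, SOX9, PROM1, SMOC2 and ASCL2 in the SW620 libraries with TGFB1, RepSox or DMSO, 4 libraries each, red for Tet2CD and blue for vector cells, with the mean and SD of the 4 beside the points. RepSox libraries lie below both other treatments for LGR5, TNFRSF19 and SOX9, DMSO libraries lie above both treatments for SMOC2, and PROM1 is higher with RepSox (42.4 ± 6.20 TPM) than with DMSO (20.9 ± 4.94 TPM).

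Directly compared in SW620, TGFB1 and RepSox separated 3 markers. LGR5 was higher with TGFB1 by 1.26 on the log2 scale (SE 0.25, adjusted p = 0.00134), at 12.1 ± 1.49 TPM with TGFB1 and 4.60 ± 0.773 TPM with RepSox (SD, n = 4 each). TNFRSF19 was higher by 1.21 (SE 0.27, adjusted p = 0.00306), at 10.7 ± 1.66 TPM with TGFB1 and 3.75 ± 0.275 TPM with RepSox, and SOX9 was the third. None of the 3 overlapped between the treatments. SMOC2 (-0.26, SE 0.23), ASCL2 (-0.37, SE 0.40) and PROM1 (-0.34, SE 0.16, adjusted p = 0.126) did not pass in the fit to all libraries, but SMOC2 and PROM1 did without the 3 SW480 libraries (adjusted p = 0.0418 and 0.0115). In counts, TGFB1 against DMSO called 2 markers (1 higher, 1 lower) where 15.6% of all genes tested were called, RepSox against DMSO 3 (1 higher, 2 lower) where 4.69% were, and TGFB1 against RepSox 3, all higher, where 29.1% were.

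**Figure D4:**
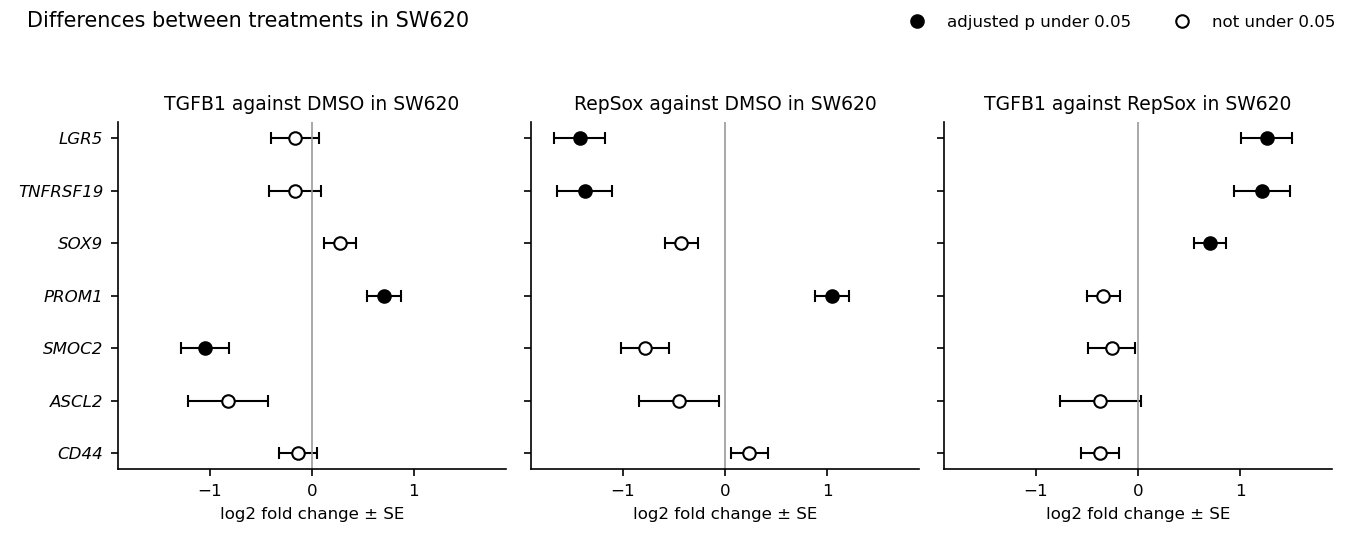
Log2 fold change with its SE for 7 markers in SW620, in panels for TGFB1 against DMSO, RepSox against DMSO and TGFB1 against RepSox, with filled points for an adjusted p under 0.05. LGR5 and TNFRSF19 lie at -1.42 and -1.38 with RepSox and near -0.16 with TGFB1, PROM1 lies to the right of 0 and SMOC2 to the left of 0 with both.

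In SW480 the same treatments moved no marker past the threshold. With TGFB1 0 markers were called where 1.05% of all genes were, and the unadjusted p was under 0.05 for 1 marker, PROM1, on 8 counts with TGFB1 and 1 with DMSO. With RepSox 0 markers were called, where 0.0% of all genes were, and none had an unadjusted p under 0.05, against 433 genes of the 15302, of which DESeq2 called 1 and limma 0. Between TGFB1 and RepSox 0 markers were called where 2.05% of genes were, and 2 had an unadjusted p under 0.05, PROM1 and CD44. DESeq2 and limma called 0 markers in each of these 3 comparisons. CD44 averaged 187 ± 68.4 TPM with TGFB1, 156.5 ± 58.3 TPM with RepSox and 157.5 ± 35.2 TPM with DMSO (SD, n = 4 each). TNFRSF19 averaged 24.9 ± 11.6 TPM with TGFB1, 28.7 ± 19.0 TPM with RepSox and 27.1 ± 11.0 TPM with DMSO. Each of these averages joins Tet2CD and vector cells, which the fit kept as separate means.

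The difference of the treatment effects between the lines was called for no marker. For TGFB1, 2.07% of all genes and 0 markers passed, with 1 marker, PROM1, at an unadjusted p under 0.05 and 0 called by DESeq2 or limma. For RepSox, 1.03% of all genes and 0 markers passed. TNFRSF19 came closest, with a log2 fold change of 0.05 for RepSox in SW480 (SE 0.24) and -1.38 in SW620, a difference of 1.43 (SE 0.36, unadjusted p = 0.001, adjusted p = 0.0689). DESeq2 called that difference (adjusted p = 0.00911) and limma did not (adjusted p = 0.685), and it passed without the 3 SW480 libraries that stand apart (1.57, adjusted p = 2.97e-05). LGR5, PROM1 and SMOC2 could hardly show a difference of this kind, since SW480 gave at most 18 counts of any of them over 12 libraries.

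Likeness to other genes was measured as Pearson's r over the 12 group means of log2 CPM, after the mean of each line was subtracted, among 13476 genes, and is a description with no test because the groups share libraries, depth and base composition. TNFRSF19 was most like LRIG1 (r = 0.97), a negative regulator of receptor tyrosine kinases that also marks crypt base cells, followed by PRKACB (0.961) and TLNRD1 (0.941). SOX9 was most like PCNX2, ELFN2 and STEAP2 (0.976, 0.975 and 0.968), and ASCL2 most like FKBP8, BCL7C and P3H4 (0.988, 0.986 and 0.982). SOX9 and TNFRSF19 resembled each other (0.886), and both ran against ASCL2 (-0.75 and -0.477). Likeness was not computed without the 3 SW480 libraries that stand apart. The Tet2CD change of LRIG1 in SW480 was -0.53 on the log2 scale (adjusted p = 0.0308) with them and -0.15 (adjusted p = 0.231) without them. LGR5 was most like SPTB (0.976), SMOC2 most like RXYLT1 (0.93) and PROM1 most like AC016705.2 (0.896), but for these 3 genes the SW480 side of the pattern rests on few counts. CD44 was most like TMEM68 (0.937), and MSI1 was too low to be compared.

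Other genes of the crypt base were looked at beside the markers, from a list of 23 of which 20 were tested. In SW480 Tet2CD cells 10 were called, 1 higher and 9 lower, with a list median of -0.46 on the log2 scale where the median of all genes was 0.03 and 54.5% of them were called. Without the 3 libraries that stand apart 7 were called, 1 higher and 6 lower, with a list median of -0.15, where 38.0% of all genes were. DCLK1, a kinase that marks tuft cells, fell to 3.29 ± 2.61 TPM in Tet2CD cells, against 17.3 ± 7.35 TPM in vector cells (log2 fold change -2.13, SE 0.19, adjusted p = 6.56e-07, and -1.96, adjusted p = 1.42e-08, without the 3 libraries). MEX3A, an RNA-binding protein of slowly cycling LGR5+ cells, fell to 5.57 ± 2.05 TPM in Tet2CD cells, against 17.7 ± 7.83 TPM in vector cells (-1.27, SE 0.14, adjusted p = 4.44e-06, and -1.21, adjusted p = 7.58e-06, without them; SD, n = 6 each). In SW620 Tet2CD cells 0 of the 20 were called, where 0.314% of all genes were. With TGFB1 in SW620 6 of 20 were called, 1 higher and 5 lower, where 15.6% of all genes were, CDCA7, a MYC target, with 26.9 ± 4.68 TPM against 61.6 ± 8.25 TPM with DMSO (-1.29, SE 0.26, adjusted p = 0.00269). With RepSox in SW620 3 were called, where 4.69% of all genes were, SLC12A2, a chloride cotransporter of the crypt, at 18.8 ± 2.16 TPM with RepSox against 9.07 ± 1.33 TPM with DMSO, and EPHB2 and the transcription factor TCF7 lower. In SW480 0 of 20 were called with either treatment against DMSO.

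Between the lines 14 of the 20 were called in vector cells (5 higher, 9 lower in SW480), where 58.9% of all genes were, so that these counts and those that follow are read against a majority of genes. DCLK1 stood at 17.3 ± 7.35 TPM in SW480 and 0.142 ± 0.0975 TPM in SW620, and CD24, a surface sialoglycoprotein, at 4.62 ± 1.95 TPM in SW480 and 148 ± 66.2 TPM in SW620. The 8 counts of DCLK1 in SW620 vector cells were too few to bring it into the tested set. Of 8 genes of fetal-like or regenerating epithelium, 7 were called, 5 of them higher in SW480, among them CLU, the secreted chaperone clusterin, at 415 ± 54.4 TPM in SW480 and 11.0 ± 2.91 TPM in SW620. Of 16 genes of differentiated intestinal cells, 6 were tested and 5 were lower in SW480, among them TFF3, a goblet cell peptide, at 0.58 ± 0.968 TPM in SW480 and 179 ± 52.9 TPM in SW620. TFF3, FABP1, KRT20 and MUC2 gave only 3, 0, 4 and 5 counts in SW480 vector cells. They could not reach the tested set through those cells, so their direction was largely fixed in advance. The fifth, VIL1, was well counted in both lines (1152 counts in SW480 and 7215 in SW620). With RepSox in SW620 1 of these 6 was called, where 4.69% of all genes were. It was MUC2, the main goblet cell mucin, which rose to 1.36 ± 0.102 TPM with RepSox, against 0.0525 ± 0.0512 TPM with DMSO (137 against 6 counts, log2 fold change 4.42, SE 0.65, adjusted p = 0.00148; SD, n = 4 each). MUC2 reached the tested set only through libraries with RepSox, apart from 1 library with TGFB1, so it had to differ. TFF3 stood at 123 ± 8.48 TPM with RepSox and 164 ± 26.6 TPM with DMSO and was not called. Of the separate list of 8 epithelial markers, 7 were tested and 2 were called with RepSox in SW620, both lower. The median of that list was 0.07 on the log2 scale, so the list as a whole did not fall. CDX2, the transcription factor of intestinal identity, was lower with RepSox, at 8.43 ± 2.74 TPM against 20.6 ± 4.79 TPM with DMSO (-1.21, SE 0.23, adjusted p = 0.00428). The other was CDH17, an intestinal cadherin, called lower on 0 counts with RepSox against 16.7 with DMSO.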

How the data were processed

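RNA was measured by RNA-seq in 24 libraries, 1 gene table each, and groups were read from the labels. Per the study's methods and the labels, RNA was extracted with TRIzol, prepared with a TruSeq kit and quantified with RSEM. The submitters' processing notes name Bowtie, RSEM and the mouse build mm10 without versions, but all gene identifiers are human Ensembl identifiers and were treated as such. The authors deposited expected counts (RSEM's estimate of fragments per gene) and TPM, which is scaled per transcript length and to the same sum in each library. The sources used here do not say whether counting was stranded.

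Symbols came from GENCODE 29 (32777 of 33382 identifiers). Expected counts were rounded and tested in edgeR 4.0.16 (R 4.3.3; quasi-likelihood, TMM scaling, edgeR's filter on low counts, minimum count 10), with 1 mean for each of 12 groups and 12 residual degrees of freedom. This left 15302 genes over which p-values were adjusted by Benjamini-Hochberg, with a threshold of 0.05. Tet2CD and line comparisons averaged the 3 treatments (6 against 6), and treatment comparisons averaged the constructs (4 against 4). Levels are TPM, fold changes come from counts. P-values measure only the spread between libraries, which may be technical. All pairs of libraries of a group differed by more than sampling noise. Intervals and floors (3 counts) cover counting error only. Alternatives were DESeq2 1.42.0, limma 3.58.1 on log2(TPM + 1), another scaling, no filter, a GC offset, a term for the library number set, single lines, single treatments or constructs, and left-out libraries. Counting the calls of the gene lists without the 3 SW480 Tet2CD libraries numbered 1 was chosen after seeing the data. The scripts were tested on simulated data.

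The markers and lists were chosen with earlier results of these data known. The genes named beside the markers are up to 2 called genes of each list with the largest change in a comparison, some of which are not reported here, and EPHB2 was named after its values were seen.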

Additional observations from a re-analysis of the deposited data

Results flagged for a closer look

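The effect of Tet2CD on ASCL2 differed between the lines by the test of the difference itself. The log2 fold change was 1.78 in SW480 and 0.31 in SW620, a difference of 1.47 (SE 0.45, adjusted p = 0.0311 by edgeR's quasi-likelihood test). All 6 SW480 Tet2CD libraries lay above the 6 vector libraries, while in SW620 they overlapped. The difference was 0.48 (adjusted p = 0.144) without the 3 SW480 Tet2CD libraries numbered 1 and 0.80 (adjusted p = 0.0465) with a correction for GC content.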

How the results depend on the processing

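No call of a marker changed sign under any alternative. The count of markers called between Tet2CD and vector cells in SW480 was 5, but 0, 2 and 3 within DMSO, TGFB1 and RepSox alone (2 against 2 libraries). For the difference of the Tet2CD effects it was 1, but 0 within each treatment, 2 with relative log expression scaling or without the 3 SW480 Tet2CD libraries numbered 1, 3 with the library number term, and 4 with no filter or with DESeq2. For TGFB1 against DMSO in SW620 it was 2, but 0 in vector or Tet2CD cells alone, 1 with limma, and 4 in SW620 alone or without the 3 libraries. For RepSox against DMSO in SW620 it was 3, but 1 in vector cells, in Tet2CD cells or with limma, and 5 in SW620 alone or without the 3 libraries. TGFB1 against RepSox gave 5 instead of 3 in SW620 under those last 2 settings, and 1 instead of 0 in SW480 without the 3 libraries. For the difference of the RepSox effects it was 1 instead of 0 with no filter, with the GC offset, without the 3 libraries and with DESeq2. Over the libraries left out in turn, the counts ran from 0 to 4 for the difference of the Tet2CD effects, from 1 to 2 for TGFB1 in SW620 and from 0 to 1 for the difference of the RepSox effects, and stayed within 1.5 times the reported count elsewhere. The number of all genes called moved with the setting as well. For RepSox against DMSO in SW620 it was 717, but 353 with limma and 943 with DESeq2. For the difference of the Tet2CD effects it was 3083, 2576 and 3780 in the same order. Shares of all genes under most other settings are not given here, so a changed count of markers is no result about the markers. No paired analysis was possible because the labels give running library numbers and no replicate numbers, and the library number term stands for the lower-numbered against the higher-numbered set of libraries. Depth limits what can be seen of LGR5, PROM1 and SMOC2 in SW480, of MSI1 in SW620 and of OLFM4.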

Other observations

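Of 8 genes of regenerating epithelium, 3 were called higher in SW620 with TGFB1 than with DMSO and 0 lower, where 15.6% of all genes were called. AREG, an EGF receptor ligand, stood at 44.2 ± 7.09 TPM with TGFB1 and 11.2 ± 1.84 TPM with DMSO (SD, n = 4 each; log2 fold change 1.92, SE 0.21, adjusted p = 1.56e-05 by edgeR). With RepSox 2 of the 8 were called, where 4.69% of all genes were, CCN2, a matricellular protein and known TGF-beta target, lower at 0.67 ± 0.331 TPM with RepSox and 2.20 ± 0.401 TPM with DMSO, and EREG higher. In SW480 0 of the 8 were called with either treatment against DMSO. The difference of the TGFB1 effects between the lines, SW480 minus SW620, passed the test for AREG (-2.03, SE 0.50, adjusted p = 0.0454).

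In SW480 Tet2CD cells, 3 of the 6 tested genes of differentiated intestinal cells were higher than in vector cells and 0 lower. ALPI, the brush border alkaline phosphatase, stood at 4.08 ± 2.18 TPM in Tet2CD cells and 1.00 ± 1.10 TPM in vector cells (SD, n = 6 each; log2 fold change 3.65, SE 0.51, adjusted p = 0.000107 by edgeR), and TFF3 gave 28 against 3 counts. ALPI gave 132 against 33 counts, a smaller ratio than its log2 fold change, which averages the treatments on the log scale. ALPI reached the tested set through the Tet2CD groups, so it had to differ. The share called among all genes in that comparison was 54.5%. Without the 3 SW480 Tet2CD libraries numbered 1, again 3 of the 6 were called higher, where 38.0% of all genes were called, ALPI at 3.72 (adjusted p = 0.000155) and TFF3 with an adjusted p of 0.012.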
